A study of Homo sapiens with 5 samples.

Results

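Immediate-early-high and immediate-early-low cells were 2 groups of HES5-zero SW480 tumor cells, ranked inside each plate by how much RNA of 7 immediate early genes they held 1 day post injection (dpi). The score was the sum of the UMIs (unique molecular identifiers, 1 for each captured RNA molecule) of FOS, FOSB, JUN, EGR1, IER2, ATF3 and NR4A1 per 10000 human UMIs of the cell. The cells of each plate were split by score into 4 bins of nearly equal number, of which bin 4 was the high group and bin 1 the low group, so the groups were chosen by the values of these 7 genes, which were left out of every comparison between them. Each group held 95 cells, 42, 23 and 30 from libraries 6, 7 and 8, out of 383 HES5-zero cells at 1 dpi, 533 cells at 1 dpi and 826 cells in the whole series that passed the filters of over 2000 genes and under 25% mitochondrial UMIs.

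SW480 is an established human colorectal cancer line, here marked with GFP by a lentiviral vector, sorted, and injected into zebrafish embryos, from which pools of tumors were dissected at 1 dpi (libraries 6, 7 and 8) or 4 dpi (libraries 10 and 11). Tumors were dissociated with an enzyme in the presence of the ROCK inhibitor Y-27632, and live cells were sorted singly into plates of 384 wells for SORT-seq, a 3'-end, plate-based single-cell RNA-seq method. No library carried a drug treatment or a genetic change other than the GFP vector, and both groups shared the injection, the digestion, the inhibitor and the sort. The libraries held between 4487175 and 7632953 human UMIs, and each plate was 1 sample. The labels do not say whether the 3 plates of 1 dpi came from separate pools of tumors, so the spread between plates may be technical. The p-values below use this spread after edgeR, the test program, shares it over all genes. Very small p-values therefore do not measure the spread of a gene over 3 plates alone.

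Immediate early genes are switched on within minutes of a stimulus, without new protein synthesis, by transcription factors that already sit on their promoters. Growth factors and stress act through the MAP kinases and the serum response factor SRF, which binds CArG boxes, and through CREB and ATF factors, which bind cAMP response elements (CREs). Many of the induced genes encode AP-1 and EGR transcription factors, and others encode phosphatases and RNA-decay proteins that end the response, which is known to occur also while tissue is being dissociated.

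The promoters of a few genes were picked for display because they carry the letters of these sites next to the start of the gene. Where a gene had several windows, the window with the most matches is shown. Each window runs from 250 bases before to 50 bases after the RefSeq start (GRCh38.p14), 5′ to 3′ on the strand of the gene. The windows of EGR1 at chr5:138465229-138465528 (plus strand), EGR2 at chr10:62816317-62816616 (minus strand) and SRF at chr6:43171019-43171318 (plus strand) held 2, 1 and 2 CArG boxes, which are in capitals.
EGR1: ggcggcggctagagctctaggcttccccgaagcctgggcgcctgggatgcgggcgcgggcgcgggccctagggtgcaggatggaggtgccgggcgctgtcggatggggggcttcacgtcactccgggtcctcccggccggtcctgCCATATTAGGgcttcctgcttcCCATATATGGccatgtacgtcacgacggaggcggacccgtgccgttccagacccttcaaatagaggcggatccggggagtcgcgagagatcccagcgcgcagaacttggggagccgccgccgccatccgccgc
EGR2: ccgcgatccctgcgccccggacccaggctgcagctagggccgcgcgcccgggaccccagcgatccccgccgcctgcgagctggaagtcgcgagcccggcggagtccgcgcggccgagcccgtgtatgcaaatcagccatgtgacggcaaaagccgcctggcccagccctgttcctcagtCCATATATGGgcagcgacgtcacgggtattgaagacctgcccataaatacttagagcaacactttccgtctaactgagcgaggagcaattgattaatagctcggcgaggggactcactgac
SRF: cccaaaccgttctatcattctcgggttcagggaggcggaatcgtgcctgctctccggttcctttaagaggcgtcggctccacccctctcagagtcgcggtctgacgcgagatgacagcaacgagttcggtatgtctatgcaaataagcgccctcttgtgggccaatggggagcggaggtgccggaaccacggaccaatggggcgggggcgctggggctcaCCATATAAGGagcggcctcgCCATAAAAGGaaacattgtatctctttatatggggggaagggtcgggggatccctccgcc
The windows of DUSP1 at chr5:172771146-172771445 (minus strand) and PPP1R15A at chr19:48872171-48872470 (plus strand) each held 1 full CRE, TGACGTCA, in capitals.
DUSP1: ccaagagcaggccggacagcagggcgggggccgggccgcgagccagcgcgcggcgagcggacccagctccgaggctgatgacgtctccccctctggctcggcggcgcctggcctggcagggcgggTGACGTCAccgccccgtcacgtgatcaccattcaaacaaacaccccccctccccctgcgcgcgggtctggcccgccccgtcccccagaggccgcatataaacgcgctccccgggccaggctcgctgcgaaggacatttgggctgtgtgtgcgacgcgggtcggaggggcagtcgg
PPP1R15A: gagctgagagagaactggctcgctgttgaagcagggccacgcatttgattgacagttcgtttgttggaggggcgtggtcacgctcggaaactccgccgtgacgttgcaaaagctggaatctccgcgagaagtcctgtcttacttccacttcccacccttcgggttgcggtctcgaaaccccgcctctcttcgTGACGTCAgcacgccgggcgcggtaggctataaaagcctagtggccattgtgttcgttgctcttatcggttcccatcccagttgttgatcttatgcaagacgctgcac
The windows of FOS at chr14:75278578-75278877 (plus strand) and HES1 at chr3:194135898-194136197 (plus strand) each held 1 core of the CRE, TGACG, in capitals, which is also a part of the full CRE.
FOS: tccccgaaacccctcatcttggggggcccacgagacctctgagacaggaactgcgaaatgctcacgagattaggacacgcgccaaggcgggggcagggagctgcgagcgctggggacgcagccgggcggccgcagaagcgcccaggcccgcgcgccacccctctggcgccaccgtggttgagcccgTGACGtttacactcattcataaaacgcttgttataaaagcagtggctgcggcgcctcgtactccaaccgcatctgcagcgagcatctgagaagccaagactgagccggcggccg
HES1: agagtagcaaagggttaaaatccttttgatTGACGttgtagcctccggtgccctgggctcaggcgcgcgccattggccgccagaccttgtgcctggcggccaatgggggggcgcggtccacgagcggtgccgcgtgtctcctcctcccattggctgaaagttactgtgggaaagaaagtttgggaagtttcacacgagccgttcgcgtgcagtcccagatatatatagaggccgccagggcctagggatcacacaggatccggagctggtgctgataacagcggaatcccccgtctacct
Both strands were searched. Of 35116 promoter windows of all genes, 1.29% held a CArG box, 1.85% a full CRE and 24.6% the core. Among the windows of genes that were higher in immediate-early-high cells in the comparison below, 4.66% held a full CRE, against 1.67% for genes that were lower and 3.21% for all genes tested. The CArG box was in 1.35% of the windows of the higher genes and in 1.40% of those of the lower genes. These are matches of letters in a short window and were not tested. Promoter windows were found for 7 of the 7 score genes, 19 of 26 other immediate early transcription factors and 23 of 30 feedback genes. Most of these genes lacked the full sites. A CArG box was found in 1 of the 7, 2 of the 19 and 0 of the 23, and a full CRE in 0, 2 and 4.

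The score reached very high values in a small number of cells. Its median was 28.2, 58.6 and 35.4 UMIs per 10000 in the high cells of libraries 6, 7 and 8, and 1.15, 2.05 and 1.67 in the low cells. The highest scores were 257, 342 and 265, and 16 of the 95 high cells were above 100. At the limits there was no gap, since the lowest high cells had 12.26, 17.54 and 14.32 and the next cells below them 11.99, 17.24 and 13.99. At the lower limit the highest low cells had 2.16, 3.03 and 2.50 and the next cells above them 2.19, 3.20 and 2.53. The groups were the 2 ends of a range of scores with no gap at either limit.

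**Figure D1:**
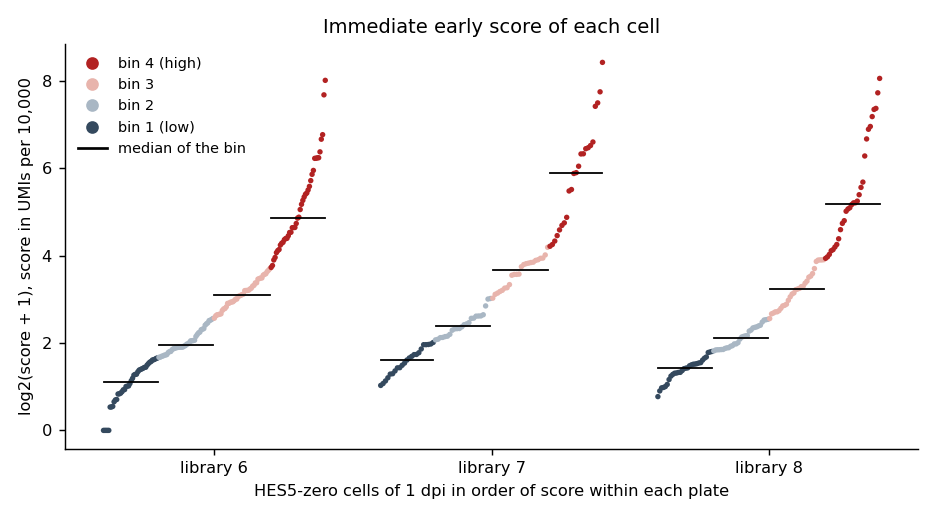
Immediate early score of every HES5-zero cell at 1 dpi, in UMIs of the 7 genes per 10000 human UMIs, as log2 of the score plus 1, for libraries 6, 7 and 8, with the 4 bins set within each library. The top bins begin at 12.3, 17.5 and 14.3 and run without a gap into the bin below.

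The groups were chosen by the sum of the 7 genes, so the values of these genes within the groups are a description. All 7 were detected in 41 of 95 high cells and at least 5 in 88, against 0 and 13 of 95 low cells. EGR1 gave the most UMIs in 47 high cells, IER2 in 21, FOS in 14, JUN in 5, ATF3 in 4, FOSB in 3 and NR4A1 in 1. EGR1 made up 32.3% of all score UMIs of the high group, IER2 21.5% and FOS 20.8%, while in the low group IER2 led with 38.7%. Over the cells of a plate, EGR1 and IER2 had Spearman correlations from 0.602 to 0.653 and FOS and FOSB from 0.573 to 0.615, whereas ATF3 and NR4A1 had only 0.033 to 0.235. These points share a plate and a depth, and the correlations are given as a description.

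Since a score gene cannot be tested in groups it helped to choose, each was compared in groups ranked on the other 6 genes. Levels are given as CPM, counts per 1000000 of the summed UMIs of a plate's group after TMM scaling, and differences as log2 of high over low with the standard error (SE) from edgeR. FOS, the AP-1 subunit, was at 755, 1946 and 1376 CPM in the high sums of libraries 6, 7 and 8 and at 25.9, 35.8 and 26.2 CPM in the low sums. Every high sum was far above every low sum, and the log2 difference was 5.43 ± 0.21 (SE, n = 3 plates, adjusted p = 1.7e-17). EGR1, a zinc finger factor, was at 1104, 3528 and 1668 CPM against 36.1, 50.9 and 24.9 CPM, with a log2 difference of 5.68 ± 0.23 (adjusted p = 6.1e-39). Library 7 had the highest level of both genes in the high group.

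The other 5 did not overlap between the groups either. Such a gap was common, since 24.3% of the genes in the main comparison below had every high sum above every low sum. NR4A1, an orphan nuclear receptor, stood at 103, 237 and 207 CPM against 4.05, 5.94 and 7.36 CPM, a log2 difference of 4.91 ± 0.27. FOSB, a further AP-1 subunit, differed by 4.64 ± 0.23, IER2 by 3.78 ± 0.17 and JUN by 3.43 ± 0.22. The stress-induced factor ATF3 had the smallest log2 difference of the 7, at 2.99 ± 0.23, with 268, 554 and 334 CPM against 51.6, 35.8 and 48.4 CPM. All 7 passed the test, in comparisons in which 21.5% (without FOS), 20.1% (without FOSB), 19.5% (without JUN), 20.6% (without EGR1), 18.2% (without IER2), 18.1% (without ATF3) and 20.4% (without NR4A1) of all genes were called higher. EGR1 ranked 2 and FOS 3 by log2 difference among the genes tested in their comparisons, and ATF3 38.

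**Figure D2:**
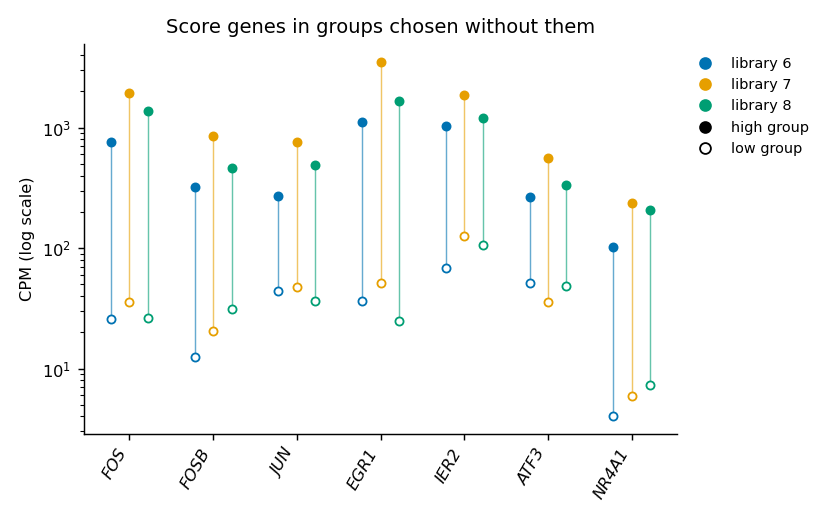
Level of each of the 7 score genes, in CPM on a log axis, in the high and low cells of libraries 6, 7 and 8 when cells were ranked on the other 6 genes, 1 point for each library. For every gene all high points lie above all low points, from EGR1 (log2 difference 5.68) to ATF3 (2.99).

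Across the 8734 other genes tested, 1864 were higher in immediate-early-high cells (21.3%) and 1618 were lower (18.5%) at an adjusted p under 0.05 by edgeR. In all, 3347 of the 3482 called genes moved in the same direction in all 3 plates. They were called on these same plates, which favors genes that agree between plates, so this count is no separate support. The median log2 difference over all genes was -0.01. The high sums of all 3 plates lay above all low sums for 24.3% of genes and below them for 23%. These shares are the background for the counts of gene groups that follow. Depth moved with the groups, since high cells had a median of 24670, 29144 and 18629 UMIs in libraries 6, 7 and 8 and low cells 30483, 37846 and 21506. Without library 6 the counts were 1180 higher and 807 lower, and without library 7 they were 1439 and 1009.

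The other immediate early transcription factors rose almost as a whole, with 22 of 23 tested members higher, 0 lower and a median log2 difference of 2.29. EGR2, a zinc finger factor of the same family as EGR1, was at 113, 395 and 182 CPM in the high sums and 3.31, 2.38 and 0 CPM in the low sums. Its log2 difference was 6.60 ± 0.35 (adjusted p = 1.5e-21), it had a UMI in 60.0% of high and 5.26% of low cells, and 1 cell held 26.7% of its UMIs in the high group. EGR3 had 106 UMIs in the high group and 2 in the low group, a depth-corrected ratio of 64.7 (95% interval 17.5 to 542, counting error only). EGR4 was at 102, 197 and 82.6 CPM against 0.828, 9.51 and 4.59 CPM.

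KLF6, a Krüppel-like factor, was at 489, 958 and 613 CPM against 35.6, 58.2 and 50.5 CPM, which gave 3.81 ± 0.20 (adjusted p = 1.5e-21), and it was detected in 94.7% of high cells. KLF10 (3.16 ± 0.20) and the AP-1 subunit JUNB (3.52 ± 0.20) rose to a similar degree. No plate of either gene overlapped between groups. KLF2 differed by 4.09 ± 0.42, but 1 cell held 46.4% of its UMIs in the high group. SRF itself, the factor that binds the CArG boxes shown above, was at 107, 144 and 101 CPM against 29.8, 46.3 and 34.4 CPM (1.68 ± 0.21). CEBPD was the 1 tested member that did not pass, at 0.19.

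The genes that end the early response rose beside those that carry it. Of 27 tested feedback genes, 24 were higher and 0 lower, with a median log2 difference of 2.23. DUSP1, the phosphatase that inactivates MAP kinases, was at 116, 224 and 123 CPM in the high sums and 4.97, 9.51 and 8.03 CPM in the low sums (4.34 ± 0.27, adjusted p = 1.2e-18). BTG2, an antiproliferative gene, was at 125, 87.2 and 167 CPM against 4.14, 8.32 and 9.18 CPM (4.16 ± 0.29). In both genes the lowest high plate was many times the highest low plate. ZFP36, which promotes the decay of AU-rich mRNAs, rose by 3.06 ± 0.21, GADD45B by 3.82 ± 0.24 and PPP1R15A, which directs the dephosphorylation of eIF2α, by 2.87 ± 0.20. GADD45A was abundant in both groups, at 983, 1074 and 913 CPM against 166, 294 and 163 CPM. The members that did not pass were DUSP4 (-0.10), BTG3 (0.01) and SPRED1 (0.47).

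The kinases and factors upstream of these promoters were less uniform. Of 18 tested, 6 were higher and 2 lower, with a median of 0.22, but without library 6 the counts were 3 and 0 with a median of 0.05, and with DESeq2 3 and 0. CREB1 was at 77.8, 98.1 and 72.5 CPM against 33.9, 28.5 and 39.0 CPM (1.28 ± 0.24), and ATF1 rose by 1.00 ± 0.22. The MAP kinase kinase MAP2K2 fell by 0.76 on the log2 scale and the kinase MAPK9 by 0.61. Among ligands and receptors of the EGF family and their proteases, 7 of 8 were higher and 0 lower, with a median of 1.52. AREG (amphiregulin), a ligand of the EGF receptor, was at 259, 275 and 318 CPM against 26.5, 59.4 and 25.2 CPM (2.99 ± 0.22). HBEGF rose by 2.57 ± 0.25, EREG by 2.02 ± 0.35 and TGFA by 1.16 ± 0.26.

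**Figure D3:**
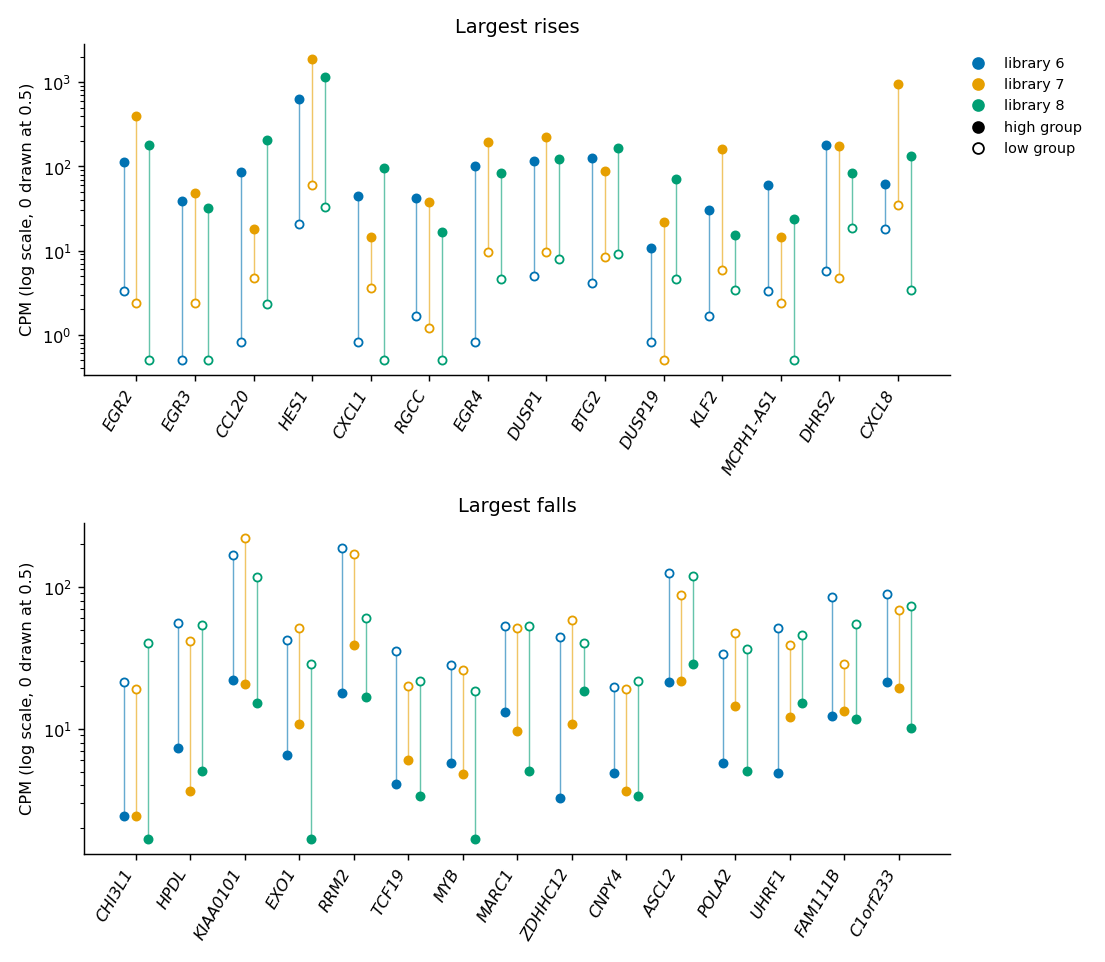
CPM on a log axis of genes with the largest rises and falls between immediate-early-high and immediate-early-low cells, 1 point for each of libraries 6, 7 and 8 and group, with levels of 0 drawn at the foot of the axis. EGR2 (log2 difference 6.60) and HES1 (5.01) are among the rises and CHI3L1 (-3.39) and RRM2 (-2.58) among the falls.

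HES1, a repressor that is also a classical target of Notch signaling, was among the genes that differed most. It was at 634, 1892 and 1173 CPM in the high sums of libraries 6, 7 and 8 and at 20.7, 60.6 and 33.3 CPM in the low sums. The lowest high sum was above the highest low sum, with library 7 the highest in both groups. The log2 difference was 5.01 ± 0.22 (adjusted p = 3.2e-25). HES1 was detected in 86.3% of high and 52.6% of low cells, and in 68.1% and 16.8% when each cell was thinned to 5000 UMIs. Over all HES5-zero cells of a plate, the score and HES1 had Spearman correlations of 0.518, 0.626 and 0.421, given as a description over 169, 94 and 120 cells that share a plate.

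Other genes of the Notch pathway moved less. Of 5 tested effectors 4 were higher. NRARP, a Notch target that limits the pathway, was at 78.7, 63.0 and 70.8 CPM against 17.4, 15.4 and 13.8 CPM (2.18 ± 0.28), HES4 rose by 1.34 ± 0.27 and DTX3 by 1.26 ± 0.29, while HES6 stood at -0.23. HEYL had 43 UMIs in the high and 15 in the low group and HEY2 29 and 8, both too few for the test. Among receptors, ligands and modifiers, 0 of 9 were higher and 3 lower, with a median of -0.36, and 1 was lower without library 6. The ligands DLL3 and JAG2 fell by 1.46 and 1.20 on the log2 scale and the glycosyltransferase LFNG by 0.96. HES5 had no UMI in any of these cells, by the rule, and a count of 0 in a single cell does not show that the gene was silent.

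NF-κB genes were also higher, 13 of 16 tested against 1 lower, with a median of 1.72. TNFAIP3 (A20), an NF-κB target that shuts the pathway down, was at 153, 94.5 and 111 CPM against 6.62, 13.1 and 5.74 CPM (3.85 ± 0.29). BIRC3, an inhibitor of apoptosis, rose by 3.05 ± 0.24, the subunits REL and RELB by 2.44 ± 0.27 and 2.26 ± 0.26, and the inhibitor NFKBIA by 2.12 ± 0.24. SOD2 was the 1 lower member, at -0.56. Of 15 chemokines 10 were listed and 3 had enough counts to be tested. All 3 were higher, but each rested on few cells. With the 4 bins scaled together, CCL20 was at 0.847, 4.78 and 2.30 CPM in bin 1 of libraries 6, 7 and 8. CXCL1 was at 0.847, 3.59 and 0 CPM there. Both had enough counts only through the high group, so the filter favored a rise and the count of higher chemokines is no support. CXCL8 was at 62.3, 957 and 133 CPM against 18.2, 34.5 and 3.44 CPM, and 1 cell held 79.7% of its UMIs in the high group. CCL20 (5.25 ± 0.43) was detected in 13.7% of high cells and CXCL1 (5.00 ± 0.54) in 22.1%, with the richest cell holding 30.7% and 28.2% of the UMIs. CX3CL1 had 15 UMIs against 8 and could not be tested. Of 10 interferon-stimulated genes tested, 3 were higher and 2 lower, with a median of 0.01, against 1 and 0 of 9 without library 6 and 1 and 1 with DESeq2.

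Stress genes rose in part. Of 20 genes of the integrated stress and unfolded protein response, 12 were higher and 2 lower (4 lower without library 8), with a median of 0.70. DDIT3 (CHOP), a factor induced by the stress kinases of translation, was at 153, 298 and 376 CPM against 33.9, 61.8 and 44.8 CPM (2.50 ± 0.21). SESN2 (2.52 ± 0.25), DDIT4 (2.39 ± 0.24), HERPUD1 (2.32 ± 0.19) and the chaperone HSPA5 (1.13 ± 0.19) rose as well, while CALR fell by 0.45 and PDIA4 by 0.78, the latter with 79.2 against 66.6 CPM in library 8. Of 20 heat shock genes, 9 were higher and 4 lower, with a median of 0.09, and 2 were lower without library 6 or without library 7. The inducible DNAJB1 was at 401, 767 and 620 CPM against 200, 178 and 197 CPM (1.58 ± 0.19), and BAG3 rose by 2.35 ± 0.27. HSPA1A and HSPA1B rose too, but these are near-identical copies whose reads cannot be assigned with certainty. The constitutive HSPA8 fell by 0.45.

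Of 13 p53 targets tested, 6 were higher and 0 lower, with a median of 0.67. CDKN1A (p21), which halts the cell cycle, was at 50.0, 54.5 and 87.6 CPM against 4.97, 8.32 and 17.2 CPM (2.71 ± 0.32), and the kinase PLK2 rose by 2.70 ± 0.22. MDM2, the ubiquitin ligase of p53, rose by only 0.90 ± 0.25, and BAX and ZMAT3 did not pass, at -0.73 and -0.64. SW480 is known to carry mutant p53. Among 12 apoptosis regulators, 3 were higher and 1 lower, with a median of 0.23. The BH3-only gene PMAIP1 (NOXA) was at 95.9, 143 and 157 CPM against 14.1, 20.2 and 16.1 CPM (2.94 ± 0.24), and BCL2L11 (BIM) rose by 1.22 ± 0.21. BID, of the same class, fell by 0.83.

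The later products of AP-1 were divided. Of 13 tested, 6 were higher and 5 lower, with a median of 0.21, but without library 6 the counts were 2 and 3, and without library 8 they were 2 and 6 with a median of -0.20. The laminin chain LAMA3 rose by 1.47 ± 0.21. The collagen receptor ITGA2 fell by 1.48 on the log2 scale and CCND1 (cyclin D1) by 0.72. The intermediate filament VIM was called lower (-1.55 ± 0.38) on libraries 6 and 8, with 10.7 and 6.74 CPM against 51.3 and 55.1 CPM, whereas in library 7 it was at 21.8 against 15.4 CPM. The cytoskeletal targets of SRF and YAP had 3 higher and 3 lower of 13 tested and a median of -0.29. Without library 6 the counts were 2 and 1, and without library 8 they were 4 and 8 with a median of -0.47. AMOTL2 was higher by 2.30 ± 0.20 and FHL2 by 1.19 ± 0.18, whereas TAGLN2, FLNA and ACTB fell by 0.98, 0.70 and 0.55.

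Genes of DNA replication were lower in most cases. Of 39 S-phase genes tested, 32 were lower and 0 higher, with a median of -1.22. PCNA, the sliding clamp of replication, was at 142, 119 and 131 CPM in the high sums and 431, 430 and 380 CPM in the low sums (-1.66 ± 0.18, adjusted p = 9.4e-11). RRM2, a subunit of ribonucleotide reductase, was at 18.0, 38.8 and 16.9 CPM against 190, 171 and 60.8 CPM (-2.58 ± 0.24). EXO1 fell by 2.63, UHRF1 by 2.21, FEN1 by 1.98, and the helicase subunits MCM5 and MCM6 by 1.77 and 1.76. Outside this list, KIAA0101 (a PCNA-binding factor) fell by 3.10 and POLA2 by 2.23. The summed S-phase genes had medians of 11.4 UMIs per 10000 in high and 24.1 in low cells. Low-cycling cells were those at or below the plate median of the summed S-phase and G2 and mitosis UMIs. Where only these cells were ranked, 12 S-phase genes could be tested and 0 passed, with a median of -0.46, and PCNA was at -0.07 (adjusted p = 0.91 by edgeR). Of all 5835 genes tested there, 182 were lower. The S-phase genes took part in choosing these cells, so this result cannot be read as a test of their fall.

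Genes of G2 and mitosis did not follow the S-phase genes. Of 47 tested, 7 were higher and 10 lower, with a median of -0.24. CKS2 was at 195, 325 and 258 CPM against 119, 97.4 and 62.0 CPM (1.45 ± 0.20). MKI67 was at 21.3, 54.5 and 8.43 CPM against 84.4, 79.6 and 49.3 CPM (-1.45 ± 0.28), CDK1 fell by 1.36 and UBE2C by 1.11. Library 7 had the highest high-group levels of MKI67, CDK1 and UBE2C. The list depended on the plates, since without library 6 it had 7 higher and 4 lower members and a median of 0.08, and without library 7 2 higher and 17 lower.

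Several genes of the Wnt pathway and of intestinal stem cells were lower, 7 of 15 tested, against 2 higher, with a median of -0.56. ASCL2, a stem cell transcription factor, was at 21.3, 21.8 and 28.6 CPM against 125, 87.9 and 119 CPM (-2.24 ± 0.23, adjusted p = 4.4e-11). APCDD1 fell by 1.77, SOX4 by 1.50 and PROX1 by 1.47 on the log2 scale, and the ubiquitin ligase genes RNF43 and ZNRF3 did not pass, at -0.04 and -0.03. AXIN2, a general readout of the pathway, was likewise at -0.04. SOX9 and EPHB3 were the 2 higher members, by 1.02 ± 0.19 and 2.32 ± 0.31. None of 3 secretory or differentiation genes passed the test, with TFF3 at -0.42, MUC13 at -0.15 and TFF2 at 0.12.

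Metabolic genes were called in both directions. Of 18 hypoxia and glycolysis genes, 6 were higher and 8 lower, with a median of 0.24, and 4 were lower without library 7, 5 without library 6 and 8 without library 8, where the median was -0.30. The glycolysis enzymes LDHA, ENO1 and ALDOA were among the lower genes, with LDHA at 571, 414 and 676 CPM against 1327, 1369 and 1060 CPM (-1.20 ± 0.19), ENO1 down by 0.98 and ALDOA by 0.91. The glucose transporter SLC2A1 fell by 1.00. VEGFA (1.84 ± 0.23), the demethylase KDM3A (1.64 ± 0.21) and ANKRD37 (1.91) were higher, as was PFKFB3 (1.79), which encodes a regulator of glycolysis. Of 13 metallothionein and oxidative stress genes 4 were higher and 3 lower (2 and 5 without library 8), with NQO1 down by 1.09 and the zinc exporter SLC30A1 up by 1.72 ± 0.25, though 1 cell held 32.7% of its UMIs. Host genes of small nucleolar RNAs and nuclear RNAs were higher in 7 of 11 cases against 1 lower, among them SNHG12 (1.55 ± 0.17), NEAT1 (1.06 ± 0.19) and SNHG1 (1.01 ± 0.18).

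The genes of cytosolic ribosomal proteins were lower in 40 of 76 cases and higher in 1, with a median of -0.46. RPL7A was at 1014, 860 and 1203 CPM against 1667, 1842 and 1677 CPM (-0.76 ± 0.18, adjusted p = 0.00059), and RPL22L1 was the 1 higher gene (0.83 ± 0.19). This count rested on the plates, because 2 genes were lower without library 6, 2 without library 7 and 71 without library 8. With only cells at or below the plate median of HES1 ranked, 0 of 76 were called in either direction. That ranking called fewer genes of any kind, with 372 higher and 247 lower of 6327 tested. Of 21 mitochondrially encoded genes 6 were lower and 1 higher, with a median of -0.44, and 1, 0 and 15 were lower without library 6, 7 and 8. MT-CO1 was at 7141, 5329 and 5657 CPM against 10949, 8573 and 9398 CPM (-0.68 ± 0.20), and MT-TV, the tRNA gene between the ribosomal RNA genes, was the 1 higher (1.80 ± 0.31). The median mitochondrial share of a cell was 12.6%, 9.90% and 8.35% in high cells and 15.1%, 11.7% and 13.8% in low cells.

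Some of the largest falls were in genes of other kinds. CHI3L1, a secreted chitinase-like protein, was at 2.46, 2.42 and 1.69 CPM in the high sums of libraries 6, 7 and 8 and 21.5, 19.0 and 40.2 CPM in the low sums (-3.39 ± 0.51, edgeR quasi-likelihood adjusted p = 5.89e-07), and it had a UMI in 6.32% of high and 34.7% of low cells. HPDL was at 7.37, 3.63 and 5.06 CPM against 55.5, 41.6 and 53.9 CPM (-3.15 ± 0.37). The high and low sums did not overlap for either gene. MYB, a transcription factor of progenitor cells, fell by 2.47 on the log2 scale and MARC1, a mitochondrial reductase, by 2.39. ZDHHC12, CNPY4, FAM111B and C1orf233 fell by 2.32, 2.25, 2.16 and 2.15. Among the rises outside the lists, RGCC had 92 UMIs in the high and 3 in the low group, a depth-corrected ratio of 37.5 (95% interval 12.4 to 185), DUSP19 differed by 4.14 ± 0.55 and MCPH1-AS1 by 4.02 ± 0.52. MCPH1-AS1 is an antisense RNA, and no source used here says whether reads were counted by strand.

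Genes that are known to rise when tissue is dissociated were higher in 71 of 82 cases and lower in 2, with a median of 1.54. Of these, 33 were in no other list, and 29 of the 33 were higher and 1 lower, with a median of 1.09. Genes were shared between lists, so their counts are not separate results. Of the 23 immediate early factors tested, 15 were also in another list, and all 8 others were higher. Among the 27 feedback genes 15 were also in another list, and 9 of the 12 others were higher. The list of dissociation genes summed to 33506, 42784 and 38836 CPM in the high sums and 17604, 18677 and 19364 CPM in the low sums. It differed in the same comparison as the gene groups described above, all cells went through the same digestion, and its part in the differences was not tested. RHOB, a small GTPase of this list, was at 305, 712 and 425 CPM against 58.0, 41.6 and 32.1 CPM (3.34 ± 0.22).

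Both groups carried some markers of colorectal epithelial cells at high levels, while others were near 0. CDX1 was not among the genes listed. In the high and low group GPA33 had 5 and 3 UMIs, LGALS4 12 and 4, and CDH17 39 and 23. EPCAM was at 991, 1011 and 1072 CPM in the high and 1436, 1589 and 1423 CPM in the low sums, and KRT8 at 1693, 1661 and 2391 CPM against 2292, 2936 and 2557 CPM. Of 12 epithelial markers 3 were higher (ELF3, CDH1 and CLDN4) and 3 lower (KRT19, EPCAM and KRT8), with a median of 0.01, but none was called lower without library 6 or without library 7. CLDN4 was higher in libraries 6 and 8 (240 and 398 against 64.6 and 130 CPM) and not in library 7 (109 against 125 CPM). Of 10 leukocyte markers, 6 (PTPRC, CD3E and MPO among them) were not among the genes listed in all libraries and seen in at least 10 wells. The other 4 summed to 29.0, 28.6 and 20.1 CPM in the high and 5.46, 5.63 and 11.2 CPM in the low sums, which was mostly ITGAM (57 and 10 UMIs). Of 10 fibroblast and endothelial markers 4 were listed, summing to 39.6, 28.6 and 46.8 CPM against 13.3, 15.8 and 19.1 CPM, mostly LUM (84 and 42 UMIs), with VWF at 0 in both groups.

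The middle of the score range showed a part of the pattern. Between bin 3 and bin 2, whose cells differ far less in the score, 81 genes were higher (0.947% of those tested) and 37 lower (0.433%). Of these 118 genes, 101 were called in the same direction between bins 4 and 1, 0 in the opposite direction, 16 were not called there and 1 (KRT86) was not tested there. Over all genes tested between bins 4 and 1, 21.3% were higher and 18.5% lower. HES1 rose from bin 1 to bin 4 from 21.2 to 32.8, 119 and 642 CPM in library 6, from 61.0 to 83.2, 311 and 1880 CPM in library 7 and from 33.4 to 33.6, 117 and 1151 CPM in library 8. The step from bin 2 to bin 3 was 1.87 ± 0.21 for HES1, 1.34 ± 0.17 for KLF6 and 1.07 ± 0.16 for GADD45A, all past the test.

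EGR2 was low until bin 4, with 3.39, 3.05, 9.75 and 115 CPM in library 6, 2.39, 2.11, 13.1 and 392 CPM in library 7 and 0, 7.01, 7.86 and 179 CPM in library 8. The plates differed for KLF6. Most of its rise came before bin 4 in library 6 (36.4, 157, 435 and 496 CPM) and library 8 (50.7, 133, 408 and 602 CPM), but at bin 4 in library 7 (58.6, 146, 273 and 952 CPM). PCNA fell step by step in all 3 plates, from 440 to 390, 205 and 144 CPM in library 6, and its step from bin 2 to bin 3 did not pass the test (-0.52 ± 0.17, adjusted p = 0.10). The 2 middle bins share no cells with the outer bins but come from the same plates. Without library 7 only 13 genes were called between the middle bins, without library 6 29 and without library 8 178.

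**Figure D4:**
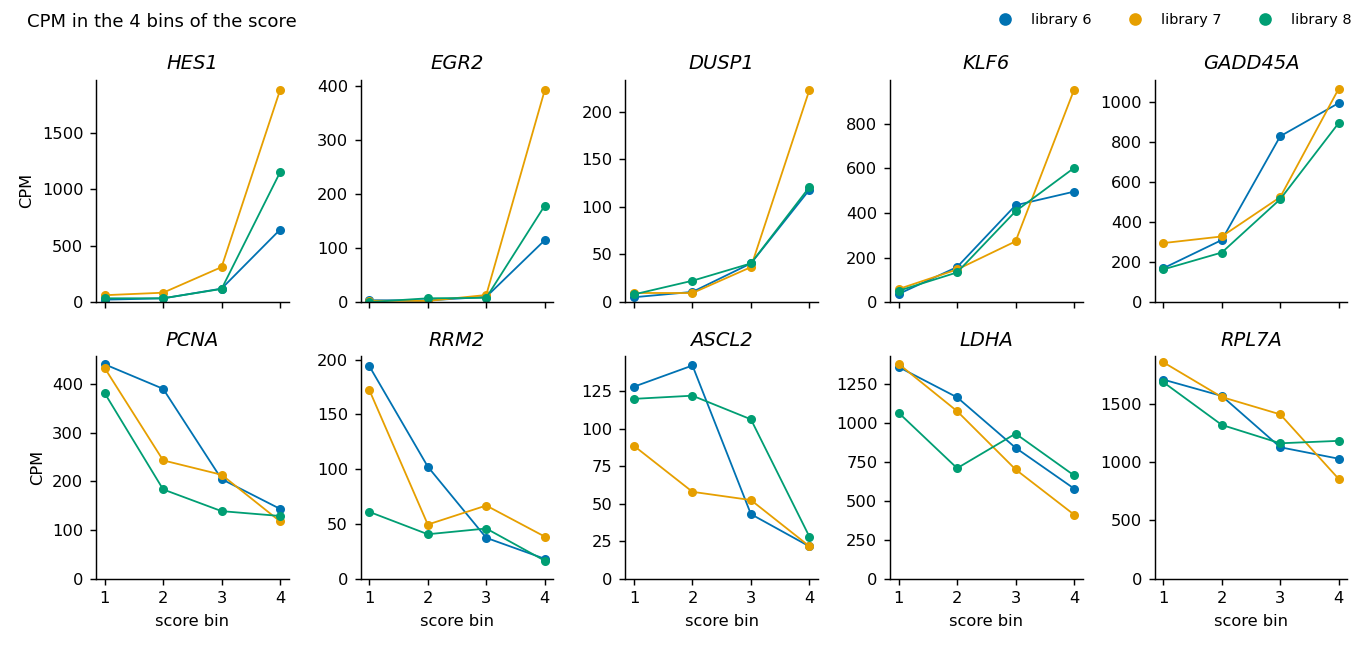
CPM on a linear axis from 0 of 10 genes over bins 1 to 4 of the immediate early score, 1 line for each of libraries 6, 7 and 8. HES1, KLF6 and GADD45A rise from bin 2 to bin 3, EGR2 mostly at bin 4, and PCNA falls from bin 1 on.

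At 4 dpi the same ranking was made in the 275 HES5-zero cells of libraries 10 and 11, with 68 cells in each group. There 17.1% of genes were higher and 12% lower. The other immediate early transcription factors were higher in 22 of 24 cases and the feedback genes in 24 of 28, with 0 lower in both. EGR2 differed by 9.22 ± 0.80, DUSP1 by 6.04 ± 0.35, KLF6 by 3.63 ± 0.18 and HES1 by 3.32 ± 0.27. Low cells held few UMIs of EGR2 already at 1 dpi, so its value at 4 dpi should not be read as a size. S-phase genes were lower in 11 and higher in 1 of 40 cases, and ribosomal protein genes lower in 65 of 76.

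The difference between the days was itself tested as an interaction, in which 52 of 9901 genes had a larger high-minus-low difference at 4 dpi (0.525%) and 12 a smaller one (0.121%). Among the first were genes of metallothioneins, which bind zinc and copper. MT2A was at 666, 1400 and 1615 CPM in high and 1108, 682 and 1182 CPM in low cells at 1 dpi, and at 2768 and 2054 CPM against 241 and 253 CPM at 4 dpi. The difference between the days was 3.02 ± 0.35 on the log2 scale (adjusted p = 4.2e-05), and MT1E and MT1X, close paralogs whose reads may be shared, had 3.00 and 2.54. RRM2, lower in high cells at 1 dpi, was at 139 and 115 CPM against 73.2 and 117 CPM at 4 dpi, an interaction of 3.02 ± 0.39 (adjusted p = 0.00015).

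HES1 was among the genes with a smaller difference at 4 dpi, by -1.71 ± 0.36 (adjusted p = 0.020). Its high sums were at 280 and 183 CPM and its low sums at 23.0 and 23.4 CPM at 4 dpi. SMCO2 (-2.46), AZGP1 (-2.23), RAB3IP (-1.87) and the splicing factor SRSF5 (-1.78) also had smaller differences. ALOXE3 and SERPINE2 had the largest positive values. ALOXE3 was at 0 CPM in both low sums of 4 dpi, so its value of 6.46 depends on the prior count and is no estimate of size. SERPINE2 was at 2.87 and 1.17 CPM in these sums, so its value is no estimate of size either. Day and pool cannot be told apart with 3 and 2 plates. The gap in score between the groups was not compared between the days. The other immediate early transcription factors had a median interaction of 0.47 and the feedback genes 0.75. Without library 6 the interaction called 4 genes in place of 64 and without library 11 32, and HES1 was not called without either (-1.75 and -1.39, adjusted p = 0.11 and 0.33 by edgeR).

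In the 150 HES5-detected cells of 1 dpi, ranked in the same way, each group held 36 cells, and 4.96% of genes were higher and 0.829% lower. The immediate early transcription factors were higher in 15 of 21 cases and the feedback genes in 18 of 27. S-phase genes were called in 0 of 32 cases and ribosomal protein genes in 0 of 76, whereas genes of G2 and mitosis were higher in 28 of 41, with a median of 1.51.

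The test of the difference between the HES5 classes called 57 genes with a larger difference in HES5-detected cells (0.653%) and 64 with a smaller one (0.733%). Of 48 genes of G2 and mitosis, 17 had a larger difference in HES5-detected cells and 0 a smaller one. MKI67, a proliferation marker, was at 73.7, 43.5 and 91.4 CPM in high and 18.7, 8.97 and 50.6 CPM in low HES5-detected cells. In HES5-zero cells the order was the opposite, at 21.6, 56.0 and 8.73 CPM in high against 87.3, 82.0 and 51.4 CPM in low cells. The difference of the differences was 3.01 ± 0.50 (adjusted p = 0.0023), with 2.70 ± 0.45 for CDK1, 2.55 ± 0.51 for UBE2C and 1.62 ± 0.31 for PCNA.

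HES1 had a smaller difference in HES5-detected cells, by -2.11 ± 0.54 (adjusted p = 0.049). There it was at 2705, 4225 and 2587 CPM in high and already at 817, 123 and 534 CPM in low cells. DHRS2, a dehydrogenase gene, was at 75.1, 170 and 57.4 CPM in high and 47.7, 215 and 90.1 CPM in low HES5-detected cells, and its difference was smaller by 4.02 on the log2 scale. AREG (-2.61 ± 0.51), KLF6 (-1.94 ± 0.42), TNFAIP3 (-2.18 ± 0.56) and SESN2 (-2.67) also differed less. Bins were drawn within each HES5 class, and the gap in score between the groups was not compared between classes. The other immediate early transcription factors had a median interaction of -0.81 and the feedback genes -0.43. The sums of HES5-detected cells held as few as 10 cells, and without library 6 this test called 14 genes and without library 8 76, in place of 121.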

How the data were processed

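Live SW480 cells from pooled zebrafish tumors were profiled by SORT-seq, 384 wells to a library, in 3 libraries of 1 dpi and 2 of 4 dpi. The authors aligned reads to the human transcriptome with BWA (build hg38 in the submitters' processing notes, versions not given in the sources used here) and deposited UMI counts per gene and well, as whole numbers and without normalization. Libraries 6, 7 and 10 were on 1 flow cell and 8 and 11 on the other of 2 flow cells. Rows of ERCC spike-in RNA were left out of totals, genes had to be listed in all 5 libraries and seen in at least 10 wells, and 15028 remained. No doublet caller was run, because cells were sorted singly. In the 3 plates of 1 dpi, 27 well barcodes were held by HES5-zero cells in all 3, since the plates use the same barcodes.

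UMIs were summed per plate and group, and a sum needed at least 10 cells. The sums were compared with edgeR 4.0.16 in R 4.3.3 (filterByExpr, TMM, glmQLFit and glmQLFTest, two-sided, Benjamini-Hochberg adjustment over all genes tested, called at 0.05) with the plate as a block, because both groups came from the same plate. Reported SEs are the log2 difference divided by the root of F. DESeq2 1.42.0 was an alternative. On simulated data with 200 changed genes, 87.8% of the 188 tested were recovered for the comparison of high and low cells over 8734 genes, and 2.37% of calls were false. Those genes were changed by 1.5 on the log2 scale, with the same baseline in every plate. The real comparison called 3482 genes, so the simulated share of false calls does not carry over to it. Cell counts are not replicates, and the depth of 4487175 to 7632953 human UMIs per library limits low genes. Intervals cover counting error only.

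Genes were named by a rule: the 7 score genes, the 15 largest rises and 15 largest falls with at least 20 CPM and 1 direction in all 3 plates, up to 6 called members of each of 28 gene lists with the smallest p (where fewer than 2 were called, the 2 of highest level), the 5 largest differences in each direction of each interaction, and HES1, HEYL, HEY2, CX3CL1 and CXCL1. List members outside the rule (among them CEBPD, DUSP4, BTG3, SPRED1, SOD2, CALR, PDIA4, HSPA8, BAX, ZMAT3, RNF43, ZNRF3, AXIN2, HES6, MUC13, PFKFB3 and ANKRD37) were chosen after their values were seen. Some genes that the rule or a list names are not reported here. The members and lists were chosen with earlier results of these data known. Alternatives were other cell filters, group sizes, scores, thinning to 5000 UMIs, strata of depth and mitochondrial share, low-cycling or HES1-low cells alone, and leaving out each library.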

Additional observations from a re-analysis of the deposited data

Results flagged for a closer look

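The difference between immediate-early-high and immediate-early-low cells was tested for a change between 4 and 1 dpi, and the values here are that change on the log2 scale, in HES5-zero cells. It was positive for ALOXE3 (6.46), SERPINE2 (4.25), NGFR (3.28), RRM2 (3.02), MT2A (3.02), MT1E (3.00), MT1X (2.54), VIM (2.43), KIAA0101 (2.25), SOX4 (1.44) and CCND1 (1.31). It was negative for SMCO2 (-2.46), AZGP1 (-2.23), RAB3IP (-1.87), SRSF5 (-1.78) and HES1 (-1.71). In the low sums of 4 dpi ALOXE3 was at 0 CPM, and SERPINE2 was at 2.87 and 1.17 CPM. The values of these genes are therefore no estimates of size. With library 6 left out, 4 genes in all were called.

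The same difference was tested between HES5-detected and HES5-zero cells of 1 dpi. It was larger in HES5-detected cells for the mitosis genes KIF20A (5.88), DLGAP5 (3.70), MKI67 (3.01), CDK1 (2.70), UBE2C (2.55) and TMPO (1.31), and for the replication genes ESCO2 (3.56), KIAA0101 (3.49), RRM2 (3.07), FEN1 (2.16) and PCNA (1.62). MT1G (4.32), EGFL7 (4.16), MARC1 (2.61), PROX1 (2.06), APCDD1 (1.89) and CCND1 (1.49) were also larger. MT1G was at 0 CPM in the HES5-detected high cells of library 7 and at 110 and 73.1 CPM in those of libraries 6 and 8. KIF20A was at only 2.49, 4.81 and 0 CPM in bin 4 of the HES5-zero cells of libraries 6, 7 and 8. Its value is therefore no estimate of size.

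It was smaller in HES5-detected cells for DHRS2 (-4.02), NEURL3 (-3.90), TSC22D3 (-3.57), C1orf162 (-3.53), IRX5 (-3.32), SESN2 (-2.67), AREG (-2.61), TNFAIP3 (-2.18), HES1 (-2.11), DDIT4 (-2.00), BIRC3 (-1.98), KLF6 (-1.94), SNHG12 (-1.81), TRIB3 (-1.77), VEGFA (-1.62) and SNHG8 (-1.28). With library 6 left out, 14 genes in all were called, and with library 8 left out 76.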

How the results depend on the processing

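The 1864 higher genes became 988 with DESeq2, 361 with cells thinned to 5000 UMIs (2858 genes tested), 463 in low-cycling cells (5835 tested) and 372 in HES1-low cells (6327 tested), and the 1618 lower genes became 745, 281, 182 and 247, with 2457 when HES5-detected cells were kept in. Leaving out 1 library gave 1180 to 1809 higher and 807 to 1721 lower genes. Without the replicate block of plates there were 1727 and 1441. The 118 genes between the middle bins were 15 with DESeq2 and 13 to 178 with 1 library left out. The 64 genes that differed between the days were 21 with DESeq2, 11 after thinning and 4 to 74 with 1 library left out, and the 121 between HES5 classes were 50 with DESeq2 and 14 to 107 with 1 library left out. The 7 score genes passed the test in every library left out and with DESeq2. Of the values of named genes under these alternatives, 2760 kept their direction and side of the threshold, 307 kept the direction but lost the call and 2 gained it. Another 9 turned in direction: MAPK9 in HES1-low cells (0.12), TFF2 with 1 library left out (-0.28 to 0.32, negative without library 8), in depth strata (-0.014), with HES5-detected cells (-0.11), at a mitochondrial maximum of 15% (-0.13) and with the score of JUN, IER2, ATF3 and NR4A1 (-0.17), TFF3 after thinning (0.14) and with the score of FOS, FOSB and EGR1 (0.37), and UBE2C with HES5-detected cells (0.25). The causes were not tested. The HES1-low and low-cycling rankings test fewer genes and fewer cells.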
